A study of Mus musculus with 40 samples.

Results

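Elovl3 encodes an elongase of very long chain fatty acids, and its RNA was followed here in 40 single mouse livers that differed in sex, gonads and hormone pellet. The gene was found by its symbol in the table that pairs array probes with genes. It has 1 probe of the 23574 on the array and is 1 of 10842 genes named there. It was taken up because of its pattern over these same livers, together with the clock genes Nr1d1 and Arntl, so the levels of those 3 genes are described without a test.

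Elongases sit in the endoplasmic reticulum and catalyse the condensation step by which a fatty acid grows by a pair of carbons, after which a reductase, a dehydratase and a second reductase finish the cycle. Elovl3 acts mainly on saturated and monounsaturated chains, and is best known from brown fat, the sebaceous glands of the skin, and liver. In mouse liver its RNA is known to be higher in males and to follow a daily rhythm, and Nr1d1, which encodes the repressor REV-ERB alpha, and Arntl, which encodes the activator BMAL1, belong to the clock that sets such rhythms.

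All animals were C57BL/6J mice on a chow diet with 4% fat, killed at 14 weeks of age after a 12 h fast. Intact females and intact males were set beside ovariectomized females and castrated males that had been operated on at 8 weeks and given a pellet under the skin at 12 weeks. The pellet was a placebo, 0.5 mg estradiol (a plasma level of 300 pg/ml) or 5 mg dihydrotestosterone (DHT, an androgen that is not aromatized to estrogen, at 1 to 2 ng/ml), each made to release over 21 days. There were 8 groups of 5 livers, and each liver came from an animal of its own number. The labels name no pellet for the intact animals and no time of day for the killing.

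Each liver was hybridised once against a pool that holds an equal portion of RNA from every sample, so a level here is the log2 ratio of that liver to the pool and not an absolute amount. The 40 arrays had medians between -0.04 and 0.04 and interquartile ranges between 0.129 and 0.34 on the log2 scale. The Y-linked gene Eif2s3y was at or below -3.82 in the 20 females and at or above 0.35 in the 20 males, so every array matched its labelled sex and the liver stood in the numerator. Of the 8 hepatocyte markers listed, 5 were measured, and their group means lay between -0.16 and 0.06. A ratio to a pool of liver RNA shows how a marker varied and not how abundant it was, so the tissue label could be checked only for variation. In bulk tissue, fewer cells that carry a transcript and less transcript per cell cannot be told apart.

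A few livers stood apart from the rest of their group in Elovl3. Animal 53, an ovariectomized mouse with DHT, and animal 61, a castrated mouse with DHT, had Elovl3 levels near those of placebo livers, and animal 63, also castrated with DHT, lay between. Among castrated mice with estradiol, animal 41 was higher than the others. The Elovl3 differences and gene counts of their groups are given with and without them.

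Elovl3 was highest in intact males, lower in every other group, and lowest with estradiol. The log2 ratios of the intact male livers were 1.96, 2.33, 2.36, 2.00 and 2.46, a mean of 2.22 ± 0.22 (SD, n = 5) or 4.67 times the pool. The intact female livers had -1.31, -1.89, -1.37, -1.59 and -1.37, a mean of -1.51 ± 0.24 (SD, n = 5) or 0.352 times the pool. Every female liver was far below every male liver. The means differed by -3.73 ± 0.15 (SE), female minus male, a 13.3-fold lower Elovl3 level in females.

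**Figure D1:**
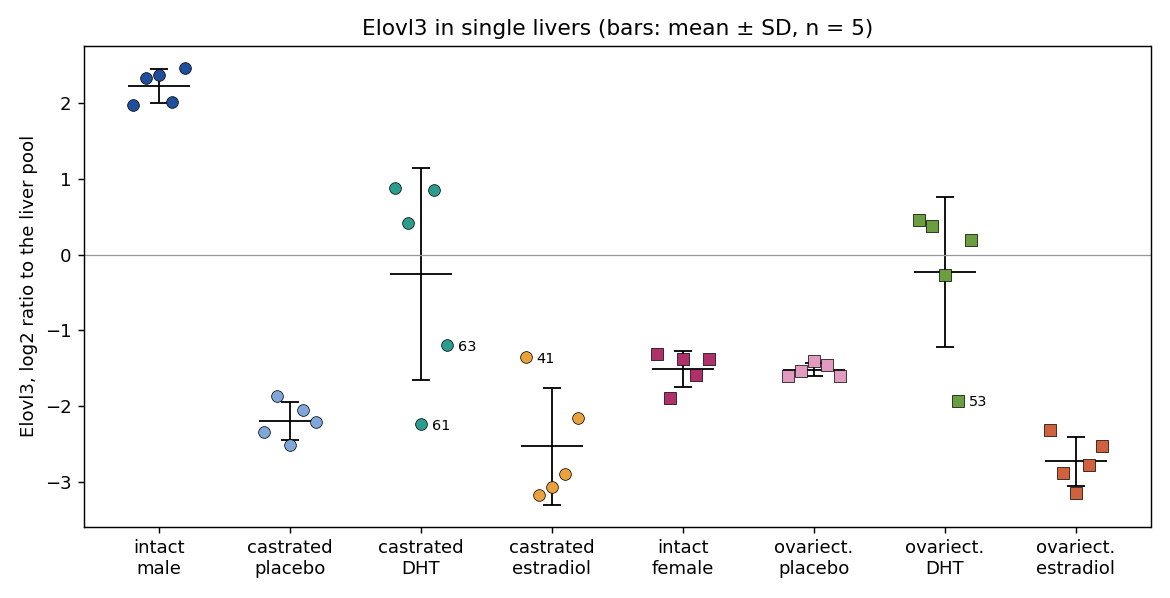
Elovl3 log2 ratio to the liver pool (y axis) in each of the 40 livers by group (x axis), with circles for males, squares for females and bars for the mean ± SD of 5. The 5 intact males sit between 1.96 and 2.46, above all others, while animals 53, 61 and 63 fall away from the other DHT livers and animal 41 lies above the other castrated estradiol livers.

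Castrated livers lacked the high level of intact males. Those with placebo had Elovl3 at -2.34, -1.86, -2.51, -2.05 and -2.21, a mean of -2.19 ± 0.25 (SD, n = 5). All 5 lay below the intact males, with a difference of -4.42 ± 0.15 (SE), castrated minus intact, or 21.4-fold. They also lay below the ovariectomized placebo livers, so that the direction of the sex difference after gonadectomy was opposite to that before it.

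Ovariectomized placebo livers overlapped with intact females in Elovl3. They had -1.59, -1.54, -1.41, -1.45 and -1.60, a mean of -1.52 ± 0.09 (SD, n = 5), which lay inside the range of the intact females. The difference, ovariectomized minus intact female, was -0.01 ± 0.11 (SE). Ovariectomized minus castrated, both with placebo, was 0.67 ± 0.12 (SE), 1.60-fold, with no overlap of the groups. The gonadectomy effect in females minus that in males was 4.40 ± 0.19 (SE).

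Estradiol went with lower Elovl3 in ovariectomized mice. Their livers had -2.31, -2.87, -3.14, -2.77 and -2.53, a mean of -2.72 ± 0.32 (SD, n = 5). Each was below each ovariectomized placebo liver, and the means differed by -1.21 ± 0.15 (SE), a 2.31-fold lower level. In castrated mice with estradiol the values were -1.35, -3.17, -3.06, -2.89 and -2.15, a mean of -2.53 ± 0.77 (SD, n = 5). There 3 livers lay below every castrated placebo liver and animal 41 lay above them all. The difference of -0.33 ± 0.36 (SE) was within the spread, and it was -0.63 without animal 41 and -0.17 without animal 43. The estradiol effect in females minus that in males was -0.87 ± 0.39 (SE).

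Markers of other cells also varied under estradiol. The mean of 6 adipocyte markers ran from -0.42 to 0.71 in ovariectomized livers with estradiol and from -0.56 to 0.72 in castrated ones, against -0.52 to -0.41 and -0.48 to -0.22 in the matching placebo livers. The mean of 5 sebaceous gland and skin markers ran from -0.34 to 0.85 and from -0.58 to 0.72 under estradiol, against -0.49 to -0.21 and -0.54 to -0.14 with placebo. For 6 Kupffer cell and macrophage markers the range with estradiol was -0.30 to 1.72 after ovariectomy and -0.51 to 0.84 after castration. With placebo it was -0.59 to 0.14 and -0.67 to -0.01. Single adipocyte and skin markers were divided in direction. Estradiol minus placebo was positive for 3 of 6 adipocyte and 3 of 5 skin markers after ovariectomy, and for 4 of 6 and 2 of 5 after castration. It was positive for 5 of the 6 Kupffer cell and macrophage markers after either surgery. None of those 6 was called, where 0.632% and 1.18% of all probes were. In DHT minus estradiol after ovariectomy, 5 of the 6 were called lower, where 3.79% of all probes were called in either direction. There 1 of 6 adipocyte markers (Fabp4) and 2 of 5 skin markers (Scd3 and Krt79) were called lower too. Fabp4 and Scd3 were also called higher with estradiol after ovariectomy, where 0.632% of all probes were called. The Scd3 call (limma adjusted p = 0.0499) was lost without any 1 of 8 of the 10 animals. The part of these markers in the Elovl3 values was not tested.

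DHT went with higher Elovl3 in most livers but not in all. The ovariectomized DHT livers had 0.45, 0.37, -0.27, -1.92 (animal 53) and 0.20, a mean of -0.23 ± 0.99 (SD, n = 5). The castrated DHT livers had 0.88, 0.41, -2.24 (animal 61), 0.85 and -1.19 (animal 63), a mean of -0.26 ± 1.39 (SD, n = 5). In each group 4 of 5 livers lay above every placebo liver of the same surgery. The exceptions were animal 53, which was below all ovariectomized placebo livers, and animal 61, which fell inside the castrated placebo range.

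Against placebo, DHT differed by 1.28 ± 0.44 (SE) in ovariectomized mice, 2.44-fold, and by 1.71 without animal 53. In castrated mice it differed by 1.93 ± 0.63 (SE), 3.82-fold, by 2.43 without animal 61 and by 2.17 without animal 63. The effect in females minus that in males was -0.65 ± 0.77 (SE), within its error. DHT minus estradiol was 2.49 ± 0.46 (SE) after ovariectomy, where the groups did not overlap, and 2.27 ± 0.71 (SE) after castration, where 4 of 5 DHT livers lay above all estradiol livers. The first was 2.91 without animal 53, and the second 2.76 without animal 61, 2.50 without animal 63 and 2.56 without animal 41.

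No DHT liver reached the intact male range. The highest, animal 59, was at 0.88 and the lowest intact male at 1.96. Castrated DHT minus intact male was -2.48 ± 0.63 (SE), 5.59-fold lower, and ovariectomized DHT minus intact male was -2.46 ± 0.45 (SE), 5.49-fold lower. Without animal 61 the first was -1.99 and without animal 63 it was -2.25, and without animal 53 the other was -2.03.

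The distance between the castrated placebo mean and the intact male mean gives a scale for single livers. On this log2 scale the castrated DHT livers stood at 69.5%, 59.0%, -0.98%, 68.9% and 22.6% of the way up. For ovariectomized DHT livers the positions were 59.9%, 58.1%, 43.6%, 6.10% and 54.1%. As linear levels, the DHT livers held between 4.50% and 38.9% of the intact male mean, and the intact female livers between 5.73% and 8.53%.

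**Figure D2:**
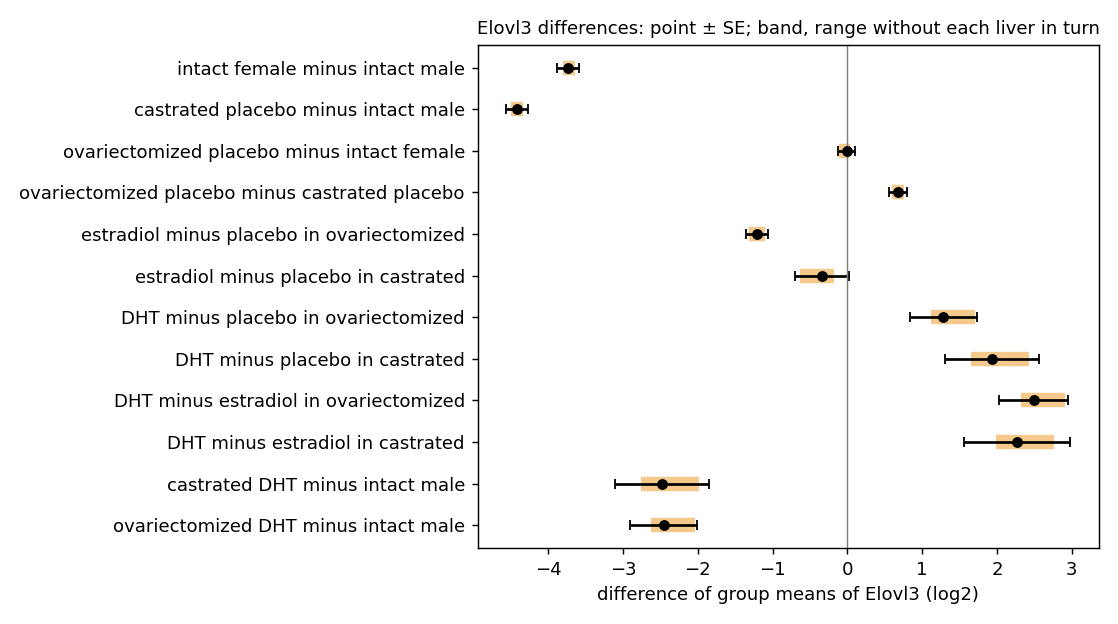
Differences of Elovl3 group means (x axis, log2) for 12 comparisons (y axis), with points ± SE from the groups compared and bands for the range when each liver is left out in turn. The castration difference, -4.42, is the farthest from 0, that of ovariectomy sits at -0.01, and the comparisons with DHT have the widest errors.

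Ordered by mean, the Elovl3 levels ran from intact males through ovariectomized DHT, castrated DHT, intact females, ovariectomized placebo, castrated placebo and castrated estradiol to ovariectomized estradiol. Neighbours in this order were separate, with no overlap of single livers, at 2 places. Intact males stood 2.46 above ovariectomized DHT (pooled SD 0.71), and ovariectomized placebo stood 0.67 above castrated placebo (pooled SD 0.19). The step from castrated DHT to intact females was 1.25 with a pooled SD of 1.00, and the groups overlapped. Each of the other 4 steps was at most 0.33 and smaller than its pooled SD.

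Elovl3 was among the most variable genes of the series. Its SD over the 40 livers was 1.67, order 25 of the 23574 probes, where the median probe had 0.156. Differences between groups held 86.1% of its variance. Within groups its residual SD was 0.687, larger than that of 99.6% of the probes, and the DHT groups held 77.0% of that within-group sum of squares. From the lowest to the highest liver the range was 5.63 on the log2 scale, 49.5-fold. There were 11 livers above the pool, the 5 intact males and 6 DHT livers. The mean of the linear Elovl3 ratios over all livers was 1.01, near the 1 that a pool of equal portions gives.

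The other elongases measured were Elovl1, Elovl2 and Elovl6, which are known to act on saturated very long, on polyunsaturated and on shorter saturated chains. Elovl4, Elovl5 and Elovl7 were not analysed here. None of the 3 had an r with Elovl3 beyond 0.39 over the 40 livers. In the limma fit with Benjamini-Hochberg adjustment, none of the 3 was called between intact females and males, where 8.69% of all probes were called. The differences, female minus male, were -0.08 ± 0.09 (SE) for Elovl1, -0.09 ± 0.20 for Elovl2 and -0.06 ± 0.20 for Elovl6.

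Elovl2 was lower in castrated placebo livers than in intact males, at -0.65 ± 0.20 (SE, limma adjusted p = 0.0287), where 12.1% of all probes were called, and in castrated DHT livers, at -0.68 ± 0.20 (limma adjusted p = 0.0362), where 6.32% were. The first call was lost when any 1 of 7 of the 10 animals was left out (animals 8, 9, 10, 12, 24, 25 and 27), with limma adjusted p up to 0.108, and the second without animal 8, 9, 10, 12, 60 or 61, at up to 0.13. Both calls were lost with quantile normalization, and both comparisons use the same intact males. Animal 11, an intact male at -0.69 for Elovl2 against 0.43 to 0.82 in the other 4, was at 2.00 for Elovl3, inside its group. Elovl6 differed by -0.71 ± 0.20 (SE) with estradiol after ovariectomy and by -0.69 ± 0.20 after castration, which missed the threshold (limma adjusted p = 0.0875 and 0.0851). The first passed without animal 33 or 34, and the second without animal 41. DHT minus estradiol after ovariectomy was 0.89 ± 0.20 (SE) for Elovl6 (limma adjusted p = 0.00847, and 0.0568 without animal 36), where 3.79% of all probes were called.

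**Figure D3:**
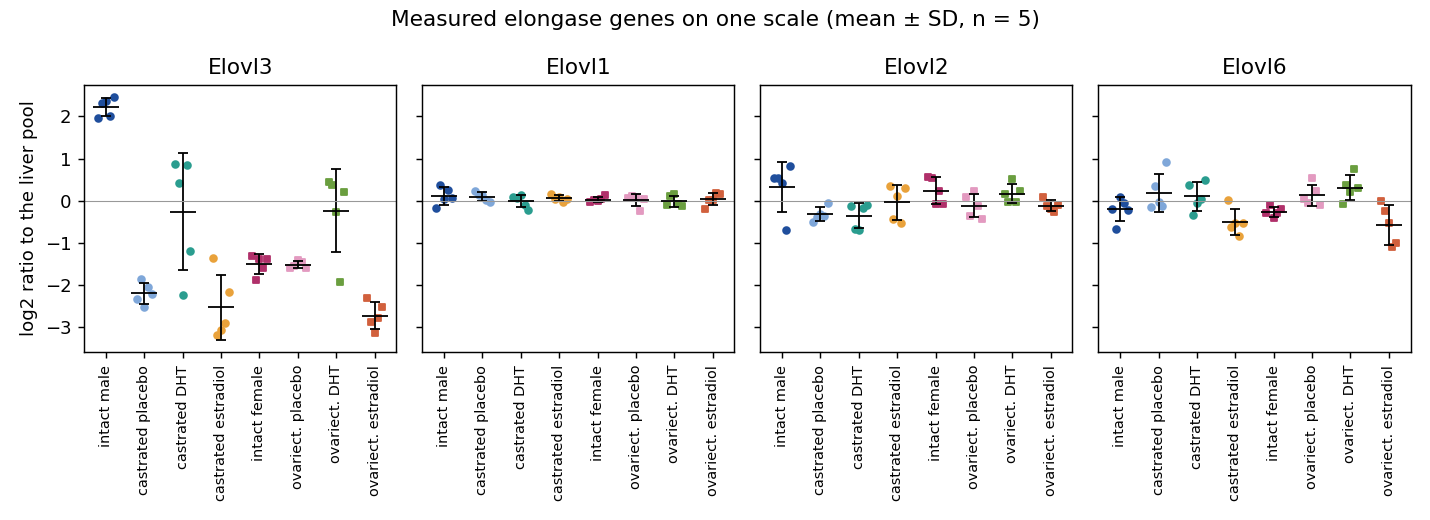
Log2 ratio to the pool (y axis, 1 scale for all panels) of Elovl3, Elovl1, Elovl2 and Elovl6 in each liver by group (x axis), with mean ± SD of 5. Elovl3 group means run from -2.72 to 2.22, while the means of the other 3 genes stay between -0.58 and 0.33.

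Of 48 genes of the steps around elongation, 7 were called after castration, or 14.6%, close to the 12.1% of all probes. Among 10 genes of the elongation cycle and desaturation, Fads1, a desaturase of polyunsaturated chains, was higher by 0.50 (limma adjusted p = 0.013; lost without animal 8, at up to 0.0542). Of 16 genes of fatty acid synthesis, 3 were higher, where 5.20% of all probes were higher, and none lower: Acaca, the first committed enzyme, by 0.70 (limma adjusted p = 0.000573), Pnpla3 by 0.37 and Fasn, the synthase, by 0.77. The Fasn call was lost without animal 12 or 25, and the remaining probes of Acaca gave 0.17 and 0.12. Of 13 genes that activate very long chains or handle them in peroxisomes, Abcd2, a peroxisomal transporter, was 1.85 higher, and Scp2 and Acsl4 were lower, at -0.58 and -0.59. The Acsl4 call was lost without animal 26. None of 10 genes of sphingolipid synthesis was called.

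Between intact females and males 4 of the same 48 genes were called, or 8.33%, close to the 8.69% of all probes. They were Acaca, 0.49 higher in females (remaining probes 0.01 and -0.07), Abcd2, 1.79 higher, Acsl4, lower at -0.63, and the ceramidase Asah2, 0.40 higher. The calls of Acaca and Asah2 were lost when any of 5 and any of 6 of the 10 animals were left out, among them animals 3, 5 and 8 in both. With the sex-biased, clock, PPARA target and regulator lists included, 41 of 146 tested genes were called between intact females and males, where 8.69% of all probes were, and 52 after castration, where 12.1% were.

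Of 24 known regulators of Elovl3 or of sex bias in liver, 4 were called after castration, beside 12.1% of all probes: Foxa1, a pioneer factor, at -0.79 and Rora, the activator that competes with Nr1d1 for its sites, at -0.60 were lower, and Pparg at 0.31 and Cux2, a female-biased transcription factor, at 1.14 were higher. The Rora call was lost without animal 8 or 26. Among PPARA targets, Pdk4, a kinase that limits glucose oxidation, was 1.69 higher in intact females than in intact males, and was the 1 listed gene called after ovariectomy, at -1.32 (limma adjusted p = 0.0387), where 0.0339% of all probes were called. Leaving out any 1 of 7 of the 10 animals ended that call, at up to 0.255. Ppara itself was lower, at -0.67, with estradiol after ovariectomy (limma adjusted p = 0.0421, up to 0.162 with 1 animal left out), where 0.632% of all probes and 6 of the 146 genes were called.

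Most known sex-biased genes of the liver were called where Elovl3 differed by sex or by castration. These lists were drawn from known sex bias, so their direction between intact males and females is no independent evidence. Among 17 male-biased genes 16 fell after castration, against 6.92% of all probes, and 16 were lower in intact females than in intact males, against 5.36%. Of 22 female-biased genes 16 rose after castration, against 5.20% of all probes, and 15 were higher in intact females, against 3.33%. No gene of either list passed the threshold after ovariectomy, but only 0.0339% of all probes did, so this count says little about these lists. By the contrast of female minus male gonadectomy effects, which 4.40% of all probes passed, 15 male-biased genes were more positive in females, against 2.78%. Of the female-biased genes 10 were more negative, against 1.62% of all probes. Castration and this contrast both take in the intact males, and this contrast the intact females as well. These counts are therefore no independent evidence either. Among the 0.0679% of probes called between ovariectomized and castrated placebo livers, the 1 listed gene was Sult2a1, a sulfotransferase, 3.77 higher in ovariectomized mice, where Elovl3 differed by 0.67.

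With DHT after ovariectomy, where 1.15% of all probes were called, 8 male-biased genes were higher (0.632% of all probes) and 10 female-biased genes lower (0.518%), and without animal 53 these were 10 and 14. With DHT after castration, where 3.47% were called, 11 were higher (1.91% of all probes) and 9 lower (1.57%), and these were 12 and 12 without animal 61 and 11 and 10 without animal 63. Cyp4a12a, a fatty acid hydroxylase, was higher by 1.68 ± 0.35 (SE) after ovariectomy and by 2.27 ± 0.35 after castration (limma adjusted p = 0.0108 and 0.000252). Slc22a26, a transporter of organic anions, differed by -2.94 ± 0.56 (SE) and -3.36 ± 0.56 (limma adjusted p = 0.00511 and 0.000454). With estradiol after castration, where 1.18% of all probes were called, 3 male-biased genes were higher, against 0.738% of all probes: Egfr by 1.71, Serpina4-ps1 by 3.06 and Cyp7b1 by 2.85. Without animal 41 the number was again 3, while the count over all 146 list genes went from 7 to 13. Elovl3 is male-biased too, but lay at -0.33 there and at -1.21 with estradiol after ovariectomy. In the latter comparison none of the 17 was called, where 0.632% of all probes were. Cyp7b1 split within that estradiol group, so its missing call does not show that it was unchanged. It was high in animal 35 (1.35), animal 36 (0.84) and animal 37 (1.31). Animal 33 (-2.57) and animal 34 (-2.92) were close to the ovariectomized placebo range, -3.27 to -2.64. After castration, the Serpina4-ps1 call was lost without animal 24, 43 or 46, and that of Cyp7b1 without any of 6 animals, 24 and 43 among them.

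The genes most like Elovl3 over the 40 livers, by Pearson r of the log2 ratios, were Spsb1 (0.92), Timm17a (0.91), Cyp4a12a (0.91), Mars1 (0.90), Thada (0.90), Ruvbl2 (0.90), Cyp4a12b (0.90) and Bmf (0.90). The lowest r values were those of Cyp2c40 (-0.93), Slc22a26 (-0.92), Rdh16f2 (-0.90) and Cyp2b9 (-0.90). All livers share the pool, and the 5 intact males lay apart from all others in Elovl3. Animal 11, an intact male inside its group for Elovl3, was the lowest intact male for Spsb1, at 0.51 against 1.21 to 1.82. It was likewise lowest for Timm17a (0.20), Mars1 (0.37), Thada (0.46), Ruvbl2 (0.29), Cyp4a12b (0.48) and Bmf (0.65, against 1.50 to 1.96), but not for Cyp4a12a (1.72). The other probe of Cyp2b9 differed by 0.24 between intact females and males, where the first had 5.43. Over all 10841 other named genes the median r was -0.02, with 6.53% over 0.5 and 4.34% under -0.5. Male-biased genes had r over 0.5 in 15 of 17 cases, and female-biased genes r under -0.5 in 15 of 22. As these lists were drawn from known sex bias and the intact males lay apart, these counts are no independent evidence. Their median r was 0.70 and -0.76, and 0.55 and -0.60 with group means subtracted.

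Once group means were subtracted, so that only livers of the same group were compared, the order changed. Dnase1 led at 0.84, followed by Aox1 (0.80), Alas2 (0.79), Cyp4a12a (0.79) and Hsd3b5 (0.76), and Cyp17a1 was lowest at -0.82, followed by Slc22a26 (-0.81) and Cyp2c40 (-0.80). Spsb1, first before, had 0.58. Cyp4a12a was near the top by both measures. The DHT groups held 77.0% of the within-group sum of squares of Elovl3, as given above.

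In the DHT livers Cyp4a12a and Slc22a26 split along the same animals as Elovl3, and Hsd3b5 did so for animals 53 and 61 but not for animal 63. Cyp4a12a was at 0.26, 0.60, 0.60, -1.40 (animal 53) and 0.39 after ovariectomy, and at 1.50, 1.33, -1.50 (animal 61), 1.47 and 0.22 (animal 63) after castration. Hsd3b5, a steroid dehydrogenase of male liver, was at 0.10, 1.38, -0.16, -3.87 (animal 53) and -0.22, and at 2.41, 1.29, -3.19 (animal 61), 1.98 and 1.20 (animal 63). Animals 53 and 61 were the lowest of their groups for both genes. Animal 63 was lowest of the remaining 4 for both, but for Hsd3b5 it lay close to animal 60, at 1.29.

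Slc22a26 ran the other way, at -2.93, -3.05, -3.31, 0.44 (animal 53) and -2.75 after ovariectomy, and at -4.43, -3.60, -0.08 (animal 61), -4.35 and -1.13 (animal 63) after castration. Of the 17 genes listed above as most like or least like Elovl3, animal 53 was inside the range of the ovariectomized placebo livers for 13 and inside the range of the other 4 livers of its own group for 0. Animal 61 was inside the castrated placebo range for 7 and inside that of its own group for 0. These genes were chosen from the same livers. Hsd3b5 has another probe that did not vary in this way, with -0.12 for intact female minus intact male where the first had -5.55, and the remaining probes of Cyp2c40 gave 1.57, 1.13 and -0.01 there.

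Arntl was at -0.71, -0.98, -1.04, -1.42 (animal 53) and -0.98 in ovariectomized DHT livers, and at -1.35, -1.22, -0.97 (animal 61), -1.40 and -1.37 (animal 63) in castrated ones. All 10 DHT livers lay below all placebo livers of the same surgery. Per2, a clock repressor, was at 1.12 in animal 53 and at 0.71 and 1.04 in animals 61 and 63, against 0.22 to 0.81 in the other ovariectomized and 0.42 to 0.66 in the other castrated DHT livers. Animal 53 had the lowest Arntl of its group and animal 61 the highest of its own, while both had Elovl3 near placebo levels.

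**Figure D4:**
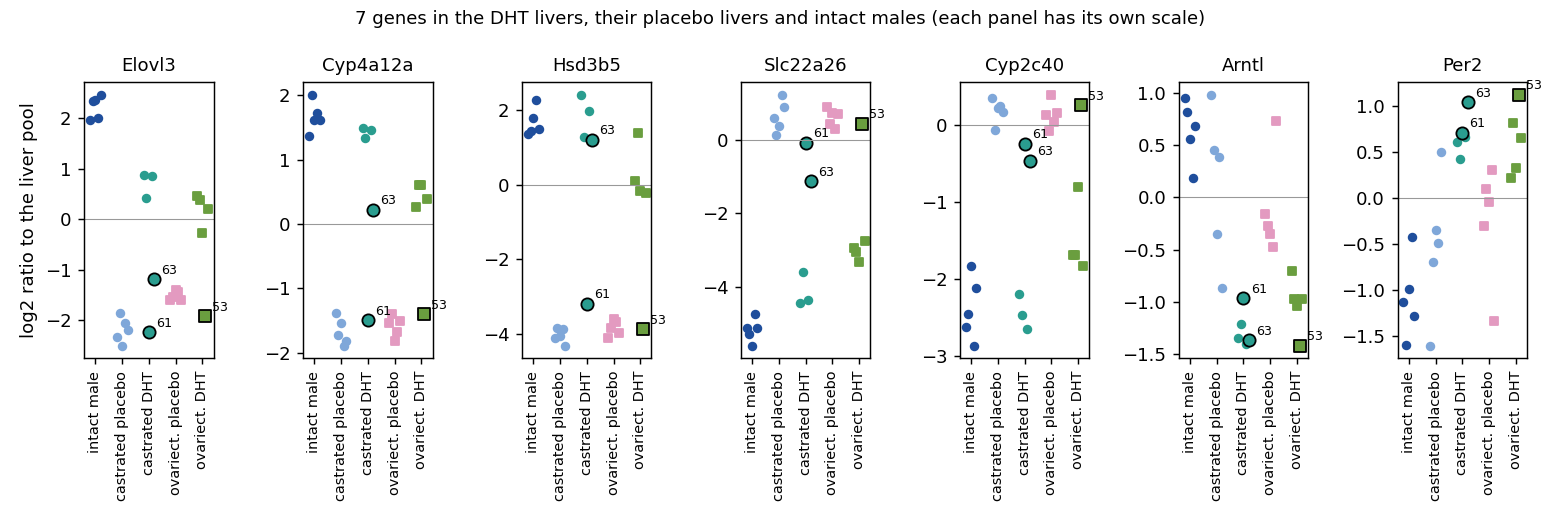
Log2 ratio to the pool (y axis, a separate scale per panel) of 7 genes in intact males and in the placebo and DHT livers of both surgeries (x axis), with animals 53, 61 and 63 outlined and numbered. In animals 53 and 61 Elovl3, Cyp4a12a, Hsd3b5, Slc22a26 and Cyp2c40 lie near the placebo livers, whereas Arntl stays below -0.9 in both.

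Across the groups Elovl3 ran in another order than Nr1d1 and Arntl. Nr1d1 group means were -0.78 ± 0.49 (SD, n = 5) in intact females and -0.05 ± 0.34 in intact males. With placebo they were 0.38 ± 0.25 after ovariectomy and 0.45 ± 0.36 after castration, with estradiol 0.07 ± 0.10 and -0.15 ± 0.54, and with DHT -0.11 ± 0.35 and -0.26 ± 0.28. Nr1d1 was thus highest in the placebo groups and lowest in intact females, neither of which was an extreme of Elovl3.

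Arntl was highest in the intact groups, at 1.06 ± 0.13 (SD, n = 5) in females and 0.64 ± 0.29 in males. It was -0.11 ± 0.48 and 0.12 ± 0.73 with placebo, -0.11 ± 0.43 and -0.74 ± 0.60 with estradiol and -1.02 ± 0.26 and -1.26 ± 0.18 with DHT, ovariectomized first. The clearest departure came with ovariectomy. Ovariectomized placebo minus intact female was 1.16 ± 0.25 (SE) for Nr1d1 and -1.17 ± 0.22 for Arntl, each without overlap, while Elovl3 differed by -0.01 ± 0.11.

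With castration Nr1d1 differed by 0.50 ± 0.22 (SE) and Arntl by -0.52 ± 0.35, and both overlapped with the intact males, while Elovl3 differed by -4.42. Arntl differed by -0.92 ± 0.24 (SE) with DHT after ovariectomy and by -1.38 ± 0.34 after castration. Castrated DHT minus intact male, groups of middle and high Elovl3, was -1.90 ± 0.15 (SE) for Arntl. The labels give no time of day, so the hour at which each group was killed cannot be told apart from its treatment in these clock values.

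Over the 40 livers Elovl3 had r = -0.04 and rho = -0.07 with Nr1d1, and r = 0.07 and rho = 0.01 with Arntl. Without the 2 livers farthest from the median of the clock gene, r was -0.09 with Nr1d1 and 0.09 with Arntl. Over the 8 group means r was -0.16 and 0.10. With group means subtracted, r was 0.30 and rho 0.42 for Nr1d1, and -0.08 and -0.04 for Arntl, and the r of 0.30 became 0.20 without animals 5 and 41, 0.53 without the castrated DHT livers and 0.65 without both DHT groups. For Arntl those last values were -0.01 and -0.23. These are descriptions, since the clock genes were part of how Elovl3 was chosen.

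Within groups, Elovl3 and Nr1d1 paired differently from group to group. Among castrated mice with estradiol, animal 41 was the highest for both Elovl3 (-1.35) and Nr1d1 (0.72), and animal 43 the lowest for both (-3.17 and -0.61). Among intact females, animal 2 was the lowest for both (-1.89 and -1.20). In castrated DHT livers the order ran otherwise, as animal 61 had the lowest Elovl3 (-2.24) with the highest Nr1d1 (0.10). Elovl3 varied by 0.57 per unit of Nr1d1 and by -0.13 per unit of Arntl within groups, all on the log2 scale. Fitted with Nr1d1 as a covariate, the ovariectomy difference in Elovl3 was -0.67 in place of -0.01, and that of estradiol after castration was 0.0064 in place of -0.33. Both use 1 slope for all groups, although the pairing differed between groups. Nr1d1 did not overlap between ovariectomized placebo and intact female livers, so the first value carries that slope across a gap without livers of both groups.

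**Figure D5:**
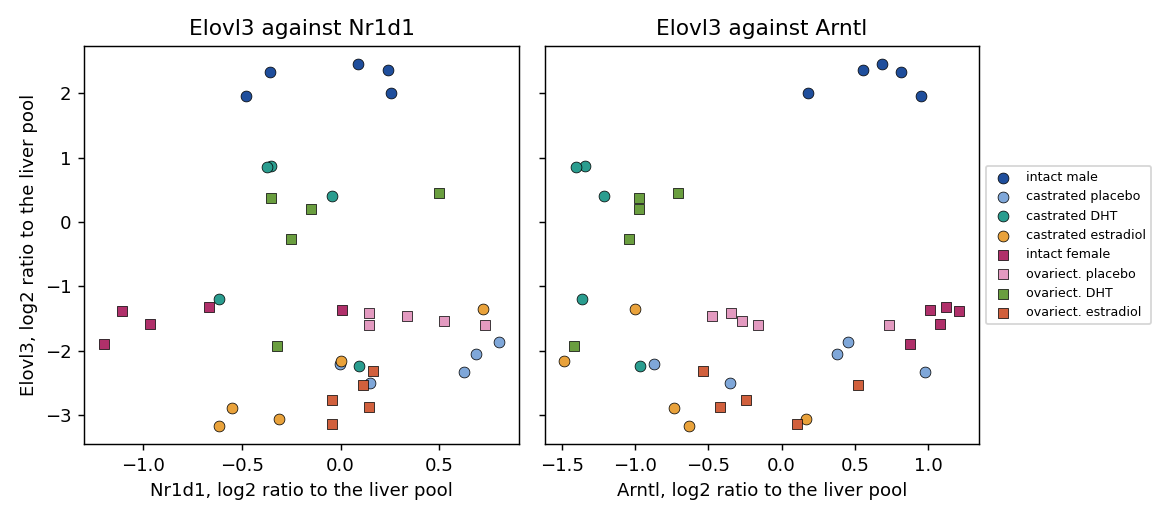
Elovl3 (y axis) against Nr1d1 and Arntl (x axes), all as log2 ratios to the pool, with 1 point per liver coloured by group, circles for males and squares for females. The 5 intact males lie highest in Elovl3, and r is -0.04 with Nr1d1 and 0.07 with Arntl over the 40 livers.

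Over the 40 livers the r of 18 clock genes with Elovl3, Nr1d1 and Arntl among them, ran from -0.31 to 0.44. None was beyond 0.5 in either direction, but few genes were, 6.53% of all named genes over 0.5 and 4.34% under -0.5. Of the 16 tested beside Nr1d1 and Arntl, 1 was called between intact females and males, or 6.25%, near the 8.69% of all probes. It was Nr1d2, the gene paired with Nr1d1 in the REV-ERB family, at -0.67 (its other probe gave 0.07). After castration, where 12.1% of all probes were called, 4 were: Bhlhe40 at 1.02 and Csnk1e at 0.38 were higher, and Rora and Nfil3 were lower. The Nfil3 call was lost without any 1 of 7 of the 10 animals (8, 9, 10, 12, 25, 26 and 28), with limma adjusted p up to 0.14. None was called with estradiol or DHT after ovariectomy, where 0.632% and 1.15% of all probes were. With DHT after castration, where 3.47% of all probes were called, Per2 was, at 1.22 (limma adjusted p = 0.0155, and 0.0773 without animal 24). For castrated DHT minus intact male, where 6.32% of all probes were called, 6 of the 16 were, or 37.5%. Per2, Bhlhe40, Dbp and Tef were higher there, and Nfil3 and Rora lower.

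Of 10 genes known as clock outputs in liver, Rgs16, a regulator of G protein signalling, was 2.60 higher in intact females than in intact males and 3.32 higher after castration. Its r with Elovl3 was -0.60. Cyp8b1, a sterol hydroxylase of bile acid synthesis, had an r of 0.77 with Elovl3 and was lower after castration, at -0.80, a call that was lost without any of 5 animals (8, 10, 12, 26 and 27). Alas1, the first enzyme of heme synthesis, was 0.99 higher with DHT after ovariectomy (limma adjusted p = 0.042, over the threshold when any 1 of the 10 animals was left out), 1.58 higher with DHT after castration and 1.00 higher with estradiol after castration, where Elovl3 differed by 1.28, 1.93 and -0.33. The estradiol call of Alas1 (limma adjusted p = 0.0415) was lost without animal 24, 25, 26, 27, 41, 45 or 46, at up to 0.177. Of the 10 outputs, 5 were called with DHT after castration, where 3.47% of all probes were. After ovariectomy 3 were called with DHT, where 1.15% of all probes were.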

How the data were processed

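The deposited values are log10 ratios of each liver (Cy5) to a common liver pool (Cy3), per the labels; how the arrays were scanned and normalized is not stated in the labels used here. They were multiplied by 3.322 to give log2. That each liver was the numerator was checked on Y-linked genes. Of 23574 probes, 13665 carried 1 gene symbol, 48 several and 9861 none; 12662 were named through current symbols, giving 10842 genes, each read from its probe of largest SD. No value of Elovl3 lay at the limit of 100-fold. All 8 groups entered 1 fit with limma 3.58.1 (R 4.3.3) and Benjamini-Hochberg adjustment over all probes within a comparison, with a threshold of 0.05; the script was tested on simulated data. Elovl3, Nr1d1 and Arntl have group means, SDs and SEs only. Named genes were the elongases, up to 4 called genes per list and comparison with the smallest adjusted p, genes whose role is described, and those of highest and lowest r with Elovl3. Elovl3, the lists and the tests were chosen with earlier results of these data known. Alternatives were quantile or median centring, array weights, robust fitting, a variance filter, fits of the compared groups alone, clock covariates, another log base and each animal left out. Counts without animals 41, 53, 61 and 63, and correlations without DHT groups, were added after seeing the data. The number of arrays limits the precision.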

Additional observations from a re-analysis of the deposited data

Results flagged for a closer look

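Only 10 of the genes given here were examined for outlying livers, in 8 groups of 5, which makes 80 sets of livers. Of these, 8 sets had 1 liver far from the rest. Its gap to the nearest neighbour, as a share of the group's range, was over Dixon's critical value of 0.71. Chance alone marks about 1 in 20 groups. For Nr1d1 in ovariectomized DHT livers the share was 0.765, animal 50 being at 0.50. For Arntl in ovariectomized placebo livers it was 0.742, animal 20 being at 0.73. For Elovl1 in ovariectomized placebo livers it was 0.808, animal 19 being at -0.24, and for Elovl2 in intact males 0.746, animal 11 being at -0.69. In ovariectomized DHT livers it was 0.830 for Cyp4a12a and 0.851 for Slc22a26, both through animal 53. For Hsd3b5 it was 0.785 in castrated DHT livers, through animal 61, and 0.742 in castrated estradiol livers, through animal 46 at 0.60. The largest share for Elovl3 itself was 0.696, in the ovariectomized DHT livers, under the critical value. Genes outside those 10 had such sets too, Ruvbl2 and Nat8 among them. For Cyp7b1 in intact males the share was 0.826, animal 11 being at -0.66.

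Among genes named here, 16 passed the limma contrast of female minus male gonadectomy effects with Benjamini-Hochberg adjustment, as did 4.40% of all probes. Genes were named partly for calls after castration, which is 1 side of this contrast, or for their r with Elovl3. Their number is therefore no independent evidence and cannot be weighed against that share. The difference was positive, as for Elovl3 (4.40), in Hsd3b5 at 5.74, Cyp7b1 at 3.86, Cyp4a12a at 3.32 (adjusted p = 5.97e-05), Serpina4-ps1 at 3.25 (adjusted p = 0.0476), Nat8 at 3.14, Selenbp2 at 2.39, Egfr at 2.13 and Cyp4a12b at 0.88. It was negative in Slc22a26 at -5.84 (adjusted p = 1.47e-05), Cyp2b13 at -5.69, Cyp2b9 at -5.23, Slc22a27 at -3.13, Rgs16 at -2.95, Cyp2c40 at -2.82, Cyp17a1 at -2.37 and Abcd2 at -1.80.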

How the results depend on the processing

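The Elovl3 values rest on 1 probe and 5 livers a group, as ratios to a pool. Under quantile normalization, median centring, group medians, mean linear ratios and the clock covariates, the 12 Elovl3 differences kept their direction, except that estradiol after castration was 0.0064 with Nr1d1 as a covariate. The ovariectomy difference, near 0, turned positive when any 1 of 5 animals was left out. Differences that moved by more than the spread were intact female minus male under quantile normalization (-3.50), and, with Nr1d1 as a covariate, the same difference (-3.32), castration (-4.70) and ovariectomy (-0.67). Had the deposited values been log2, the differences would be -1.12 for intact female minus male, -1.33 for castration, 0.20 for ovariectomized minus castrated, -0.36 for estradiol after ovariectomy, 0.39 and 0.58 for DHT after ovariectomy and castration, 0.75 and 0.68 for DHT minus estradiol, and -0.75 and -0.74 for castrated and ovariectomized DHT minus intact male. Leaving out each animal gave -3.79 to -3.63 for intact female minus male, -4.50 to -4.34 for castration, -0.11 to 0.04 for ovariectomy, 0.60 to 0.76 for ovariectomized minus castrated, -1.31 to -1.10 and -0.63 to -0.17 for estradiol after ovariectomy and castration, 1.11 to 1.71 and 1.65 to 2.43 for DHT, 2.32 to 2.91 and 1.99 to 2.76 for DHT minus estradiol, and -2.76 to -1.99 and -2.63 to -2.03 for castrated and ovariectomized DHT minus intact male.

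Counts of the 146 list genes called were 41 between intact groups, 52 for castration, 1 for ovariectomy, 1 for ovariectomized minus castrated, 6 and 7 for estradiol and 22 and 30 for DHT after ovariectomy and castration. With array weights they were 63 between intact groups, 4 for ovariectomy, 27 and 17 for estradiol and 35 and 56 for DHT. For ovariectomy quantile normalization gave 4. The more variable probes alone gave 4 for ovariectomy, 2 for ovariectomized minus castrated and 12 for estradiol after ovariectomy. With the compared groups alone the counts were 0 for ovariectomy, 5 for ovariectomized minus castrated, 1 for estradiol after castration and 16 for DHT after castration. With each animal left out they ran 38 to 48, 47 to 59, 0 to 4, 1 to 2, 0 to 18, 1 to 13, 13 to 27 and 21 to 36, in the order first given. The correlation with Nr1d1 was 0.30 with group means subtracted, and, as alternatives chosen after seeing the data, 0.53 without castrated DHT and 0.65 without both DHT groups. Of the calls of named genes, 1615 were on the same side of the threshold, 227 were lost and 4 gained; the cause was not tested. Elovl3 has 1 probe, so no other probe could be tried. No paired analysis was possible because each animal number occurs in 1 group.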

Other observations

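Usp2 and Upp2, known as clock outputs, rose with DHT after either surgery and with estradiol after castration, where Elovl3 differed by 1.28, 1.93 and -0.33. Usp2, a deubiquitinase with a daily rhythm, was higher with DHT by 0.80 after ovariectomy and 0.73 after castration, and with estradiol after castration by 0.61 (limma adjusted p = 0.00139, 0.00132 and 0.0175; the last was lost without animal 24, 27, 45 or 46). Upp2, a uridine phosphorylase of liver, was higher by 1.52, 1.46 and 1.19 in the same comparisons, while its other probe gave 0.09 and -0.06 for DHT, and its call with estradiol was lost without any of 6 animals. Insig2, which holds back the processing of sterol regulatory element binding proteins, was lower with DHT after castration, at -1.31 (limma adjusted p = 0.00591).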
